A study of Mus musculus with 6 samples.

Results

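The genes that encode the proteins of the mitochondrial ribosome were compared between cardiac progenitor cells derived from dedifferentiated adult mouse cardiomyocytes (CPC) and freshly isolated adult cardiomyocytes (Ctl). Members were all probe sets of a whole-genome Affymetrix mouse array that named exactly 1 gene with a symbol of Mrpl or Mrps followed by a digit. This gave 148 probe sets of 74 genes, among 45037 probe sets and 20678 genes tested on the array. Where a gene had several probe sets, the one brightest on average across the 6 arrays stood for it, 35 members having 1 probe set and 39 having several.

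Each group held 3 arrays. By the labels, CPC came from proliferative, dedifferentiated cardiomyocytes of bi-transgenic mice after long culture, and Ctl were adult cardiomyocytes of bi-transgenic mice that had not been cultured. The labels do not name the transgenes. The study names more than one bi-transgenic line, each joining a tamoxifen-inducible Cre driven by the cardiomyocyte αMHC promoter to a fluorescent reporter. Which of them was used here, and whether the cells on these arrays had been exposed to tamoxifen, is not given in the sources used here. Cells were captured in a microfluidic device and their cDNA was amplified, so the values rest on very little RNA. No animal, culture or number of cells per array was named, so p-values measured only the spread between these arrays, which may be technical. Where an array held several cells, fewer cells with a transcript and less of it per cell cannot be told apart.

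Mitochondria keep their own ribosomes, which make only the few proteins encoded in mitochondrial DNA, nearly all of them core subunits of the oxidative phosphorylation complexes. The ribosomal RNAs come from mitochondrial DNA, but every ribosomal protein is encoded in the nucleus and imported. Some of these proteins have counterparts in the bacterial ribosome, and others, acquired during the evolution of mitochondria, do not. The adult cardiomyocyte is among the cells richest in mitochondria, and inherited defects of several mitoribosomal proteins in humans present as cardiomyopathy.

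The labels were checked against marker genes. All 8 cardiomyocyte markers (among them Myh6, Tnnt2 and Ttn) were lower in CPC, with a summed linear level of 105810 to 111390 on the Ctl arrays and 1293 to 1813 on the CPC arrays, and of them only Actc1 averaged below the background level in CPC. Of 8 fibroblast markers 2 were higher in CPC (Col1a1 and Thy1), the summed level being 5217 to 8288 in CPC and 1806 to 4410 in Ctl. None of 6 endothelial or 6 macrophage markers passed the threshold. Of 6 smooth muscle markers 1 fell (Rgs5, -3.59). Acta2 and Tagln were higher on every CPC array without passing (2.11 and 2.46, limma adjusted p = 0.197 and 0.164). The other smooth muscle markers overlapped between groups. The summed smooth muscle level was 3502 to 8731 in CPC and 2407 to 9554 in Ctl. Over all probe sets the Ctl arrays correlated with each other at r = 0.93 to 0.97 and the CPC arrays at 0.79 to 0.86. The 3′ minus 5′ signal of the β-actin control probe sets averaged 0.14 in CPC and -0.60 in Ctl on the log2 scale (exact two-sided permutation p = 0.1, the smallest that 3 against 3 arrays allow), and that of Gapdh 2.72 and 2.04 (exact p = 0.3). CPC 3 had the highest value of both controls, 0.37 for β-actin and 3.53 for Gapdh. On the other arrays these ran from -0.85 to 0.05 and from 1.77 to 2.55. The part of other cell types or of RNA quality in the results was not tested.

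Mitoribosomal transcripts were on balance slightly lower in CPC, with few single genes past the threshold. The 6 genes that fell were Mrpl41, Mrps35, Mrpl18, Mrpl23, Mrps36 and Mrps23, and the 1 that rose was Mrpl52 (limma, Benjamini-Hochberg adjusted p under 0.05 over all probe sets). The 6 genes are 8.11% of the members, beside 4.47% of all genes that fell, and the single riser is 1.35%, beside 1.15% of all genes that rose. The share that fell was thus close to the background, and closer still to the 7.77% of the 10339 genes with an above-median mean level, to which 67 members belonged. At an unadjusted p under 0.05, 20 of the 74 members were lower and 6 higher, against 2109 and 2265 of all 20678 genes. The median difference over the members was -0.30 on the log2 scale (quartiles -1.10 and 0.26), against 0.19 over all genes, and 47 members (63.5%) had a negative difference, against 31.9% of all genes. Over the genes with an above-median level the median was 0.13 and 41.9% were negative. In 24 members (32.4%) every CPC array lay below every Ctl array, against 11% of all genes, and in 8 (10.8%) every CPC array lay above, against 21.9% of all genes. The counts depended on single arrays. Leaving out 1 array gave 12 fallers without CPC 1, 3 without CPC 2, 4 without CPC 3, 1 without Ctl 1, 3 without Ctl 2 and 1 without Ctl 3. The corresponding numbers of risers were 2, 0 and 3 without CPC 1, 2 and 3, and 0 without any one of the Ctl arrays. With each array centred on its median, 5 members fell and 0 rose. The share of all genes past the threshold in these settings is not given here. The counts are therefore not set apart from changes over the whole array.

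**Figure D1:**
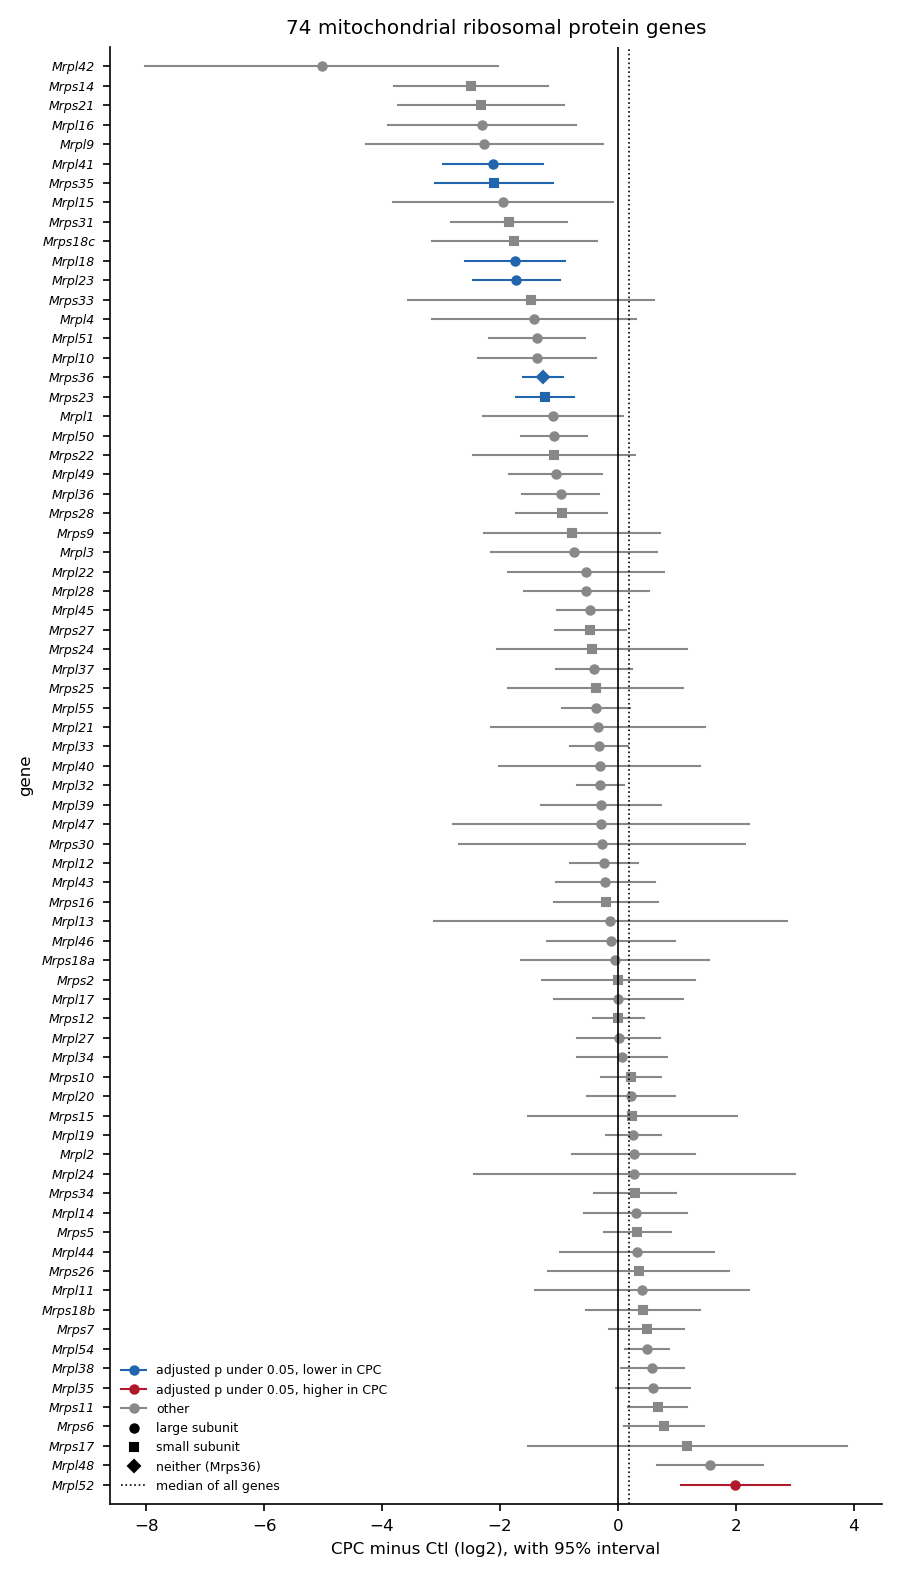
The difference between CPC and Ctl (log2, horizontal axis) of each of the 74 genes (vertical axis, ordered by difference), with its 95% interval from limma. Blue genes fell and the red gene, Mrpl52, rose; circles are large-subunit and squares small-subunit proteins, and the dotted line is the median of all genes, 0.19. The points run from -5.02 for Mrpl42 to 1.99 for Mrpl52, and most intervals include 0.

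The promoters of the members were searched for the letters of factors known to act on genes for mitochondrial proteins. RefSeq promoter windows (GRCm38.p6, 250 bases before to 50 after the start) were matched for 65 of the 74 genes, in 71 windows. Letters were searched on both strands, and no matches of different motifs overlapped in a member's window. The ETS/GABP core CCGGAAG was found in 23 of the 71 windows (32.4%) and in 8.86% of all 32851 windows. The NRF1 letters GCNTGCGC were found in 20 (28.2%, against 9.95%), the YY1 letters AAGATGGCG in 8 (11.3%, against 1.4%) and the E-box CACGTG in 7 (9.86%, against 7.15%). The 7 E-box windows belonged to only 5 of the 65 genes, since Mrpl2 had several windows with a match. The letters TCAAGGTCA, bound by estrogen-related receptors, were found in 0 member windows and 0.423% of all. The 23 genes with the ETS/GABP core had a median difference of -0.31 and the 42 without it -0.30. The 20 genes with the NRF1 letters had a median of -0.30 and the 45 without them -0.31. For the YY1 letters the medians were -0.42 in 8 genes and -0.30 in 57, for the E-box -0.40 in 5 and -0.30 in 60, and for the 7 genes with both ETS/GABP and NRF1 letters 0.01, none of these differences having been tested. For 4 genes, the 250 bases before the start are given 5′ to 3′ with matches in capitals, to show the riser (Mrpl52, ETS/GABP core beginning 47 bases before the start), a faller with the same core (Mrpl18, 240 bases before), a faller with an NRF1 match (Mrpl23, 62 bases before) and the faller with the smallest adjusted p, which had no match (Mrps36). The whole Mrpl52 window held 2 ETS/GABP cores, the other not lying wholly within the bases shown.
Mrpl52, chr14:54426659-54426908 (+ strand): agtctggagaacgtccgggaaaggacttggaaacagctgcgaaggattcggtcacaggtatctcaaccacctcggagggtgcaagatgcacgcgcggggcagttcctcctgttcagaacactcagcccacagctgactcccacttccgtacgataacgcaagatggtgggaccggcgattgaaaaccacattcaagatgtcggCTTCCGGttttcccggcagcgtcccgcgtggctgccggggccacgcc
Mrpl18, chr17:12916092-12916341 (- strand): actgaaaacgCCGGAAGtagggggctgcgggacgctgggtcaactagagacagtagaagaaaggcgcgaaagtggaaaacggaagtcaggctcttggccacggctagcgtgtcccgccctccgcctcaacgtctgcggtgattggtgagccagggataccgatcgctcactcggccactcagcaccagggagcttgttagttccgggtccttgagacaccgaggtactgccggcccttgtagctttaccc
Mrpl23, chr7:142532782-142533031 (+ strand): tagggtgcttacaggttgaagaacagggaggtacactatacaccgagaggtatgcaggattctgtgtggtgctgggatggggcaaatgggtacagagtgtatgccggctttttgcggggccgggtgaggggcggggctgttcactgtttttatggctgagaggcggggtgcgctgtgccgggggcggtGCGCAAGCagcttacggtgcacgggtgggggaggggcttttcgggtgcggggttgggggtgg
Mrps36, chr13:100744660-100744909 (- strand): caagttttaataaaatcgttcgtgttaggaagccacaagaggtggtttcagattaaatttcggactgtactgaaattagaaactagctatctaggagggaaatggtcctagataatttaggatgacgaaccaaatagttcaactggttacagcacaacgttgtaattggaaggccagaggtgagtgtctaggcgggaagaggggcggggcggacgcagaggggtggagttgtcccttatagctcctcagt

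Among the large-subunit genes, 3 of 47 fell (6.38%) and 1 rose (2.13%), with a median difference of -0.30. Of all genes 4.47% fell and 1.15% rose, so these shares were close to the background. Mrpl41, a protein with no bacterial counterpart, measured 9.53, 8.24 and 8.56 on CPC 1, 2 and 3 and 10.998, 10.999 and 10.695 on Ctl 1, 2 and 3 (RMA log2 intensity, the unit of all levels). All CPC arrays lay below all Ctl arrays, by -2.12 ± 0.35 (difference ± SE), a 4.36-fold lower level (adjusted p = 0.0225). The call held without CPC 1 or CPC 2 (adjusted p = 0.00388 and 0.045) and was lost without CPC 3 (0.0624), Ctl 1 (0.0979), Ctl 2 (0.0746) or Ctl 3 (0.0788). Mrpl23, whose bacterial counterpart sits at the exit of the peptide tunnel, measured 9.03, 8.71 and 8.32 in CPC and 10.29, 10.92 and 10.02 in Ctl. The groups were apart and the difference was -1.72 ± 0.30, or 3.31-fold (adjusted p = 0.0281). It held without CPC 1 (0.0358) and not without CPC 2 (0.0728), CPC 3 (0.0616), Ctl 1 (0.0996), Ctl 2 (0.058) or Ctl 3 (0.0579).

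Mrpl18, which in humans is known to escort cytosolic 5S ribosomal RNA into mitochondria, was at 8.61, 8.44 and 8.79 in CPC. On the Ctl arrays it read 10.13, 11.10 and 9.82, so that the CPC arrays lay close together and the Ctl arrays were more spread, with Ctl 2 the highest. The difference was -1.74 ± 0.35, or 3.34-fold (adjusted p = 0.045). The call held only without Ctl 2 (0.0363), the values without CPC 1, 2 and 3 being 0.0874, 0.113 and 0.0836 and those without Ctl 1 and 3 being 0.125 and 0.0599.

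Among the 26 small-subunit genes 2 fell (7.69%, beside 4.47% of all genes) and 0 rose, with a median difference of -0.29. Both fallers, Mrps35 and Mrps23, are proteins with no bacterial counterpart. Mrps35 measured 9.12, 8.24 and 7.86 in CPC and 10.46, 11.07 and 10.00 in Ctl. All CPC arrays were lower, by -2.10 ± 0.41 or 4.29-fold (adjusted p = 0.0424), and the call held only without CPC 1 (0.0232). Without CPC 2 and 3 the adjusted p was 0.104 and 0.0896, and without Ctl 1, 2 and 3 it was 0.145, 0.105 and 0.0775. Mrps23 read 8.68, 8.88 and 8.59 in CPC and 10.21, 9.64 and 9.99 in Ctl. Both groups were tight and apart, and the difference was -1.23 ± 0.20, or 2.35-fold (adjusted p = 0.0223). It was lost without Ctl 1 (0.0927) or Ctl 3 (0.104) and kept without CPC 1, CPC 2, CPC 3 or Ctl 2 (0.0497, 0.0469, 0.0499 and 0.0286).

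The smallest adjusted p among the members belonged to Mrps36, a protein named for the small subunit and since described as a part of the mitochondrial oxoglutarate dehydrogenase complex, a citric acid cycle enzyme, rather than of the ribosome. Its 3 CPC values, 9.27, 9.25 and 9.33, and its 3 Ctl values, 10.62, 10.48 and 10.54, spanned the narrowest ranges of all members that fell. The SD was 0.045 in CPC and 0.072 in Ctl, and the difference was -1.26 ± 0.14, or 2.40-fold (adjusted p = 0.00538). It stayed past the threshold whichever array was left out (adjusted p at most 0.0404). Without Mrps36, 5 of 73 genes fell, beside 4.47% of all genes.

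Mrpl52, a large-subunit protein with no bacterial counterpart, was the only member that rose. It measured 12.92, 12.11 and 11.60 in CPC and 10.65, 9.97 and 10.02 in Ctl, with CPC 1 the highest and no overlap between groups. The difference was 1.99 ± 0.38, or 3.98-fold (adjusted p = 0.038). The call held without CPC 1 (0.043) or CPC 3 (0.0283) and was lost without CPC 2 (0.0836), Ctl 1 (0.0757), Ctl 2 (0.114) or Ctl 3 (0.154).

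**Figure D2:**
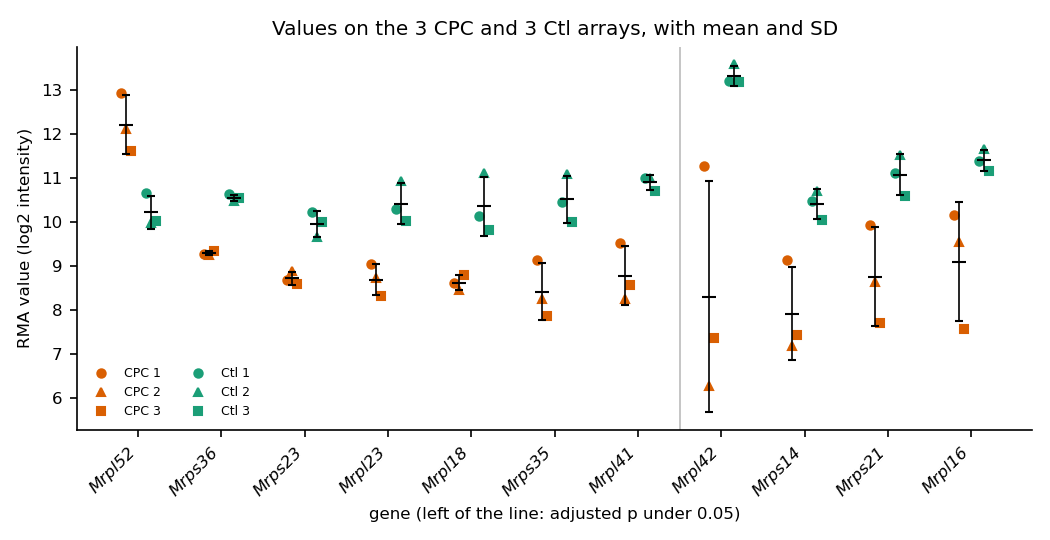
RMA log2 intensity (vertical axis) of 11 genes (horizontal axis) on each CPC (orange) and Ctl (green) array, with the mean and SD of 3 arrays as bars. The 7 genes left of the grey line passed the threshold; the 4 to its right had the largest differences among those that did not, the CPC values of Mrpl42 running from 6.26 to 11.26.

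The largest difference of all did not pass the threshold. Mrpl42, a large-subunit protein with no bacterial counterpart, was one of the brightest members in cardiomyocytes, at 13.21, 13.58 and 13.16. In CPC it read 11.26, 6.26 and 7.36. CPC 1 thus lay well above the other CPC arrays, though below every Ctl array. CPC 2 was under 6.55, the level taken here as background (the highest lower quartile of any array). The difference was -5.02 ± 1.23 (adjusted p = 0.0848). Without CPC 1 it was -6.50 and passed (adjusted p = 0.00173); without any other single array it did not (0.139 to 0.242).

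Another 4 members differed by over 2 log2 units with every CPC array below every Ctl array and an adjusted p above 0.05. Mrps14, a small-subunit protein with a bacterial counterpart, read 9.13, 7.17 and 7.43 in CPC and 10.46, 10.70 and 10.03 in Ctl, a difference of -2.49 ± 0.54 (adjusted p = 0.057). A dimmer probe set of Mrps14 gave -0.42, the groups overlapping (adjusted p = 0.427), and another was at background on all 6 arrays. Mrps21 read 9.92, 8.64 and 7.69 against 11.11, 11.51 and 10.58, a difference of -2.32 ± 0.58 (adjusted p = 0.0893). In both genes CPC 1 was the CPC array nearest to Ctl. Mrpl16, whose bacterial counterpart borders the peptidyl transferase centre, read 10.16, 9.54 and 7.57 against 11.37, 11.64 and 11.16, a difference of -2.30 ± 0.65 (adjusted p = 0.123). Mrpl9, also with a bacterial counterpart, read 10.15, 9.65 and 6.94 against 10.90, 11.50 and 11.14, a difference of -2.26 ± 0.83 (adjusted p = 0.203). In Mrpl16 and Mrpl9, too, CPC 1 was the nearest to Ctl. Mrps14 and Mrps21 passed without CPC 1 (adjusted p = 0.00422 and 0.0209) and Mrpl16 without CPC 3 (0.0386).

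Members named for their role on the flexible stalks of the ribosome did not pass the threshold. Mrpl1, on the stalk that guides the leaving tRNA, differed by -1.10 ± 0.49 (adjusted p = 0.269). Of the proteins of the opposite stalk, which recruits translation factors, Mrpl10 read 8.52, 7.77 and 7.32 in CPC and 9.04, 9.89 and 8.81 in Ctl, a difference of -1.37 ± 0.41 (adjusted p = 0.138). Mrpl12, the stalk tip, read 8.55, 8.38 and 8.65 against 8.69, 9.18 and 8.39, the groups overlapping (-0.23 ± 0.24, adjusted p = 0.576). Mrpl11, at the stalk base, read 12.15, 9.89 and 12.88 in CPC and 11.43, 11.32 and 10.95 in Ctl, so that CPC lay on both sides of Ctl (0.40 ± 0.75, adjusted p = 0.753).

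Mrps12, at the decoding centre, had one of the 3 smallest differences of all members, reading 10.22, 10.23 and 9.84 in CPC and 9.93, 10.16 and 10.16 in Ctl (0.01, 95% interval -0.43 to 0.45). The other two, Mrps2 and Mrpl17, had equal means with wide intervals (-1.29 to 1.30 and -1.08 to 1.10), since CPC 1 was high in both (10.81 and 10.33) and the other CPC arrays were not. Mrpl45, which in humans is known to anchor the large subunit to the inner membrane near the tunnel exit, read 8.67, 8.17 and 8.34 in CPC and 8.68, 9.20 and 8.74 in Ctl (-0.48 ± 0.22, adjusted p = 0.287). Mrpl44, mutated in a human infantile cardiomyopathy, read 10.34, 10.38 and 12.11 against 10.90, 10.07 and 10.88 (0.33 ± 0.54, adjusted p = 0.72).

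Mrps18a, Mrps18b and Mrps18c encode related mitoribosomal proteins, of which Mrps18c is classed as the counterpart of the bacterial protein and the other two as mitochondrial. Mrps18c read 10.76, 9.93 and 8.43 in CPC and 11.48, 11.68 and 11.24 in Ctl (-1.76 ± 0.57, adjusted p = 0.167). Mrps18b read 10.92, 10.95 and 9.55 against 10.05, 9.97 and 10.13 (0.43 ± 0.40, adjusted p = 0.538), and Mrps18a, which sits in the large subunit despite its name, overlapped between groups (-0.05 ± 0.65, adjusted p = 0.969). The 3 related genes thus had differences in both directions, none past the threshold and with no test between them. Mrps30, also a large-subunit protein by position, read 10.20 and 10.60 on CPC 1 and 2 but 6.75 on CPC 3, against 9.32 to 9.74 in Ctl (-0.27 ± 1.00, adjusted p = 0.88).

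The brightest members over the 6 arrays were Mrpl39, Mrpl51, Mrpl11, Mrpl52 and Mrps6. Mrpl39 read 12.19, 11.48 and 13.02 in CPC and 12.79, 12.11 and 12.66 in Ctl (-0.29 ± 0.42, adjusted p = 0.684). Mrpl51 read 10.29, 11.42 and 11.23 against 12.34, 12.63 and 12.10, every CPC array being lower (-1.38 ± 0.34, adjusted p = 0.0833), and Mrps6 read 11.08, 11.49 and 11.15 against 10.14, 11.001 and 10.21, every CPC array being higher (0.79 ± 0.28, adjusted p = 0.193). Mrpl14 was the dimmest member, at background on 3 of 6 arrays, and it was the only one with a mean at background in either group.

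The CPC arrays differed among themselves more than the Ctl arrays did. The median SD over the members was 0.672 in CPC and 0.310 in Ctl, against 0.322 and 0.186 over all genes, and 26 members had an SD above 1 in CPC against 2 in Ctl. The members' median level on CPC 1 was 9.54, beside 9.54, 9.90 and 9.42 on Ctl 1, 2 and 3. On CPC 1, 30 members lay below the lowest and 27 above the highest Ctl array. Neither these counts nor those of SDs above 1 were made over all genes, so they are not shown to be particular to the members. On CPC 2 and CPC 3 the median was lower, at 8.69 and 8.45. Relative to the Ctl mean the members' median was -0.04 on CPC 1, -0.71 on CPC 2 and -0.52 on CPC 3, while that of all genes was 0.03, 0.12 and 0.32. CPC 1 was the highest of the CPC arrays in 36 members, CPC 2 in 14 and CPC 3 in 24, counts likewise not made over all genes. Single genes departed widely from their array's median. Mrpl24 read 10.57, 8.66 and 13.41 in CPC against 10.49 to 10.66 in Ctl. Mrpl13 read 9.58, 6.54 and 11.55 against 8.82 to 10.18, and Mrps17 read 9.12, 12.21 and 8.06 against 7.47 to 9.23. Mrpl24, Mrpl13 and Mrps17 were chosen after their values were seen, with CPC arrays on both sides of all Ctl arrays in Mrpl24 and Mrpl13, and CPC 2 alone above them in Mrps17.

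**Figure D3:**
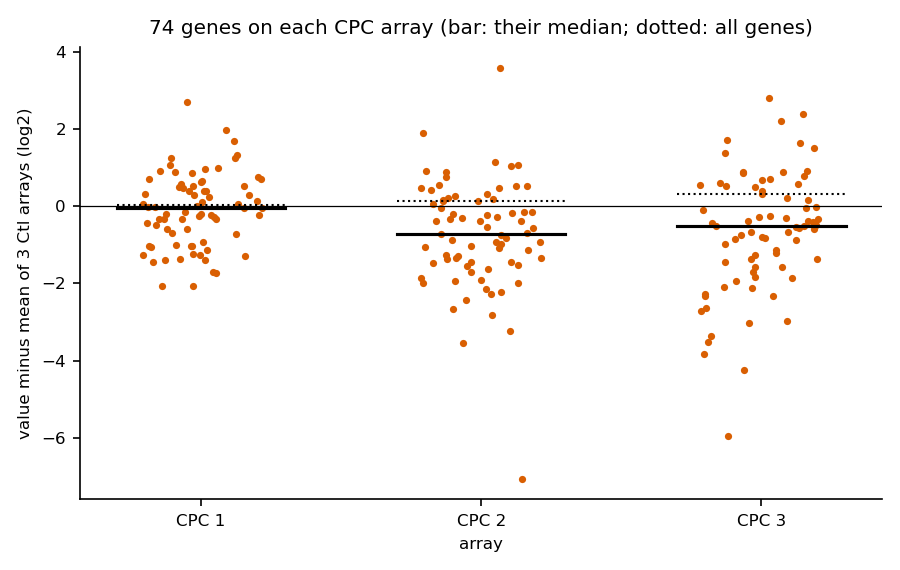
Each of the 74 genes on each CPC array (horizontal axis) as its value minus the mean of the 3 Ctl arrays (log2, vertical axis), with the members' median as a bar and that of all genes dotted. The bars stand at -0.04, -0.71 and -0.52 on CPC 1, 2 and 3, and the points of each array lie on both sides of 0.

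Probe sets of the same gene did not always give the same difference. Mrpl52 was higher in CPC by 3 of its 4 probe sets (1.99, 1.96 and 2.37, adjusted p = 0.038, 0.0424 and 0.00931), the dimmest giving 0.21. Mrps23 was lower by all of its 3 (-1.23, -0.89 and -1.61), of which the first passed (the others had adjusted p = 0.0512 and 0.208). The ID of that first probe set marks possible cross-matching, and Mrps23 lost its call when such probe sets were left out. Mrpl41 gave -2.12, -1.44 and 0.03 from the brightest to the dimmest. Mrpl15 had 8 probe sets, the 5 brightest all negative (-1.54 to -2.53) and 1 of them past the threshold (adjusted p = 0.00885), although its brightest was not (-1.95, adjusted p = 0.23). In Mrpl35 the brightest probe set gave 0.60 (adjusted p = 0.258) and another, at background on 2 arrays, gave -1.16 (adjusted p = 0.0138). Mrpl48 gave 1.57 by a probe set whose ID marks possible cross-matching (adjusted p = 0.0764) and -0.72 by its other one. Mrpl11, Mrpl19, Mrpl44, Mrps5, Mrps9, Mrps21, Mrps25 and Mrps31 also had probe sets on both sides of 0 at least 1 log2 unit apart, none past the threshold, with -2.32 and 0.05 for Mrps21 and -1.85 and 0.19 for Mrps31. The second probe sets of Mrpl42 and Mrps21 were at background on all 6 arrays. IDs that mark possible cross-matching also belonged to the probe sets that stood for Mrpl11, Mrpl44, Mrps6 and Mrps12, among others. For Mrpl11, the probe sets without this mark had mean levels of 9.01 and 8.99 and gave 0.54 and -0.58. Which transcripts the probe sets of a gene detect was not examined.

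**Figure D4:**
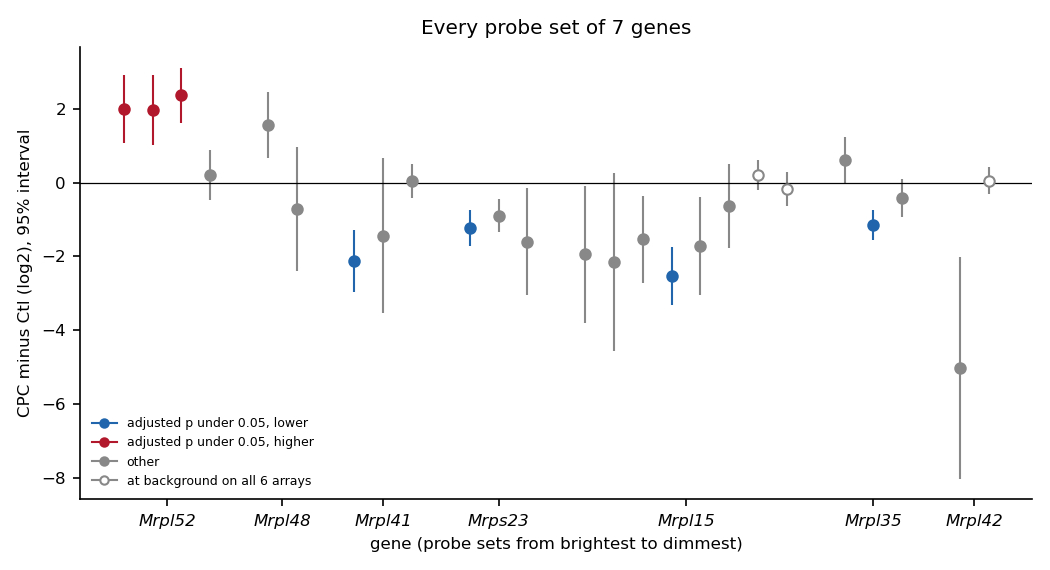
Difference between CPC and Ctl (log2, vertical axis, with 95% interval) of every probe set of 7 genes (horizontal axis), ordered within a gene from brightest to dimmest. Mrpl52 shows 3 probe sets near 2 and 1 near 0; Mrpl48 and Mrpl35 show probe sets on both sides of 0; open points were at background on all 6 arrays.

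The members' median difference lay between those of 2 other groups of genes, the subunits of the oxidative phosphorylation complexes and the ribosomal proteins of the cytosol. Of 73 oxidative phosphorylation subunits encoded in the nucleus, 30 fell (41.1%, beside 4.47% of all genes) and 0 rose, with a median difference of -2.09. Examples were Sdha, of the succinate dehydrogenase complex, which holds no mitochondrially encoded subunit (-5.32 ± 0.37, adjusted p = 0.000904), and Cox7a1, the heart and muscle isoform of a cytochrome oxidase subunit (-5.19 ± 0.23, adjusted p = 0.000251). Of 48 cytosolic ribosomal proteins 18 rose (37.5%, beside 1.15% of all genes) and 1 fell, with a median of 1.38. Among those that rose was Rps19, of the cytosolic small subunit (3.02 ± 0.31, adjusted p = 0.00399). The single faller was Rpl3l (-2.07 ± 0.39, adjusted p = 0.0351), a ribosomal protein known for its restriction to heart and skeletal muscle. The members' median of -0.30 stood between -2.09 and 1.38, and differences between lists were not tested.

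**Figure D5:**
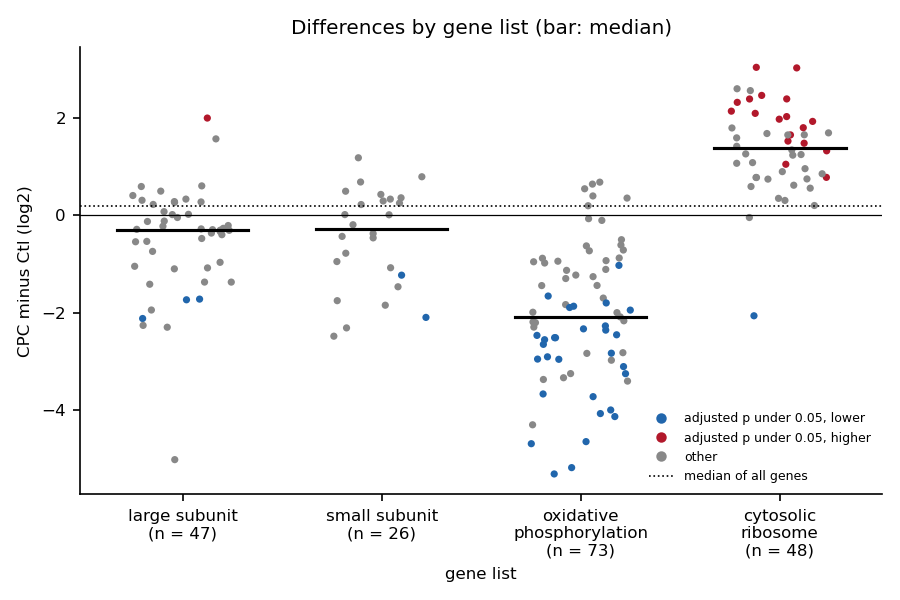
Difference between CPC and Ctl (log2, vertical axis) of the genes of 4 lists (horizontal axis), with each median as a bar, calls in colour and the median of all genes dotted. The 47 large-subunit and 26 small-subunit genes have medians of -0.30 and -0.29, the 73 oxidative phosphorylation subunits -2.09 and the 48 cytosolic ribosomal proteins 1.38.

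Other genes of mitochondrial gene expression had medians near that of the members. Of 7 mitoribosomal proteins that carry other names 0 passed the threshold (median -0.41). Of the 7, 2 were lower at an unadjusted p under 0.05, as were 2109 of all 20678 genes. The smallest p was that of Ptcd3, a pentatricopeptide protein of the small subunit. It read 9.96, 10.07 and 7.03 in CPC and 11.49, 11.34 and 11.68 in Ctl (-2.48 ± 0.82, adjusted p = 0.17). Of 12 translation factors 1 fell (8.33%, beside 4.47% of all genes), with a median of -0.27. The faller was Gfm1, the elongation factor that moves the mitoribosome along its mRNA, at 9.05, 8.98 and 7.26 in CPC and 11.86, 11.72 and 11.88 in Ctl (-3.39 ± 0.49, adjusted p = 0.014). Of 26 genes of mitoribosome assembly and rRNA modification 2 fell (7.69%, beside 4.47% of all genes), with a median of -0.23. They were Ngrn, needed in human cells for the stability of the mitochondrial large rRNA (-1.57 ± 0.29, adjusted p = 0.0339), and Mrm1, a methyltransferase of that rRNA (-0.99 ± 0.17, adjusted p = 0.0257).

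Of 18 genes of mitochondrial transcription and RNA processing 1 fell (5.56%, beside 4.47% of all genes), with a median of -0.11. Tfb2m, which opens mitochondrial promoters for the polymerase, read 8.83, 8.01 and 8.28 in CPC and 9.61, 10.49 and 9.83 in Ctl (-1.61 ± 0.32, adjusted p = 0.0427). Among the nuclear factors whose letters were searched in the promoters, Gabpa read 9.48, 7.69 and 7.67 in CPC and 10.13, 10.82 and 10.05 in Ctl (-2.06 ± 0.54, adjusted p = 0.102). Nrf1 read 8.56, 8.71 and 8.997 against 8.24, 8.17 and 8.07 (0.60 ± 0.17, adjusted p = 0.129). The groups were apart for both, in opposite directions, and neither passed the threshold. The only mitochondrially encoded message measured, that of the NADH dehydrogenase subunit ND5, was high in both groups, at 13.12, 13.25 and 13.16 in CPC and 13.48, 13.68 and 13.71 in Ctl (-0.44 ± 0.15, adjusted p = 0.177).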

How the data were processed

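RNA of 3 CPC and 3 Ctl samples was hybridised to 1 whole-genome Affymetrix mouse array each. The deposited values are log2 intensities that the authors made with RMA (background correction, quantile normalization, probe set summary); Partek is also named, and versions are not given in the sources used here. Quantile normalization makes arrays alike in distribution before the probe set summary, so differences are relative to the other transcripts. The deposited probe set values were not fully alike. CPC 3 had an SD of 1.41, a lower quartile of 6.55 and a median of 7.47. On the other arrays these were 1.59 to 1.66, 6.325 to 6.385 and 7.32 to 7.37. A deposited table of the authors' own comparison gave the gene symbols of the probe sets; its statistics (fold changes, p-values and step-up values) were not used. Array numbers limit the precision.

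Of 45101 probe sets, 64 controls were set aside. Symbols were updated through RefSeq identifiers where these were held (3174 probe sets), and all 74 member symbols were found there. The 5 probe sets that name a mitoribosomal gene together with another gene were left out, among them those of Mrpl30 and Mrpl53. CPC and Ctl were compared with limma 3.58.1 (lmFit and eBayes, R 4.3.3), two-sided, without covariates, with Benjamini-Hochberg adjustment over 45037 probe sets and a threshold of 0.05. The script was tested on simulated data. Lists were described by counts and medians only. A value was called background below 6.55, the highest lower quartile of any array. Genes were named by a rule: members past the threshold, the 4 largest differences that missed it, the 5 brightest, the 3 smallest differences, a set picked for role, members whose probe sets differ in sign by at least 1 log2 unit, and the leading gene of each other list. Members, lists and the rule were chosen with earlier results of these data known. Motifs were searched in RefSeq promoters (GRCm38.p6) in Python 3.11.15. The alternatives were other normalization, filters, variance models, array weights, probe set choices, a replicate block and leaving out each array.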

Additional observations from a re-analysis of the deposited data

How the results depend on the processing

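The number of mitoribosomal genes past the threshold and the size of their median difference depended on the processing, and the sign of the median did not. The median ranged from -0.56 with array weights to -0.19 without CPC 2 over 15 alternatives, being negative in all, while the median of all genes was positive in all. The 6 fallers and 1 riser became 5 and 0 with each array centred on its median, 9 and 1 among probe sets above the median level, 1 and 0 with a variance trend and robust moderation, 30 and 10 with array weights, 9 and 1 with the mean of all probe sets of a gene, 5 and 1 without probe sets marked as cross-matching, 1 and 0 without moderation, and 4 and 1 with dim values raised to the lower quartile. With array weights 14% of all genes fell and 22.7% rose. For the other alternatives of this paragraph the share of all genes is not given. Their counts are therefore not set apart from changes over the whole array. Leaving out 1 array gave 1 to 12 fallers and 0 to 3 risers; the design then has fewer samples. Where not shown by such construction, the cause was not tested. Mrps36 kept its call in 13 of 15 alternatives, losing it with the variance trend (adjusted p = 0.0841) and the replicate block (0.0522); Mrps23 kept it in 9, Mrpl41 and Mrpl52 in 8, Mrpl23 in 7, Mrpl18 in 6 and Mrps35 in 5.

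With the replicate block 0 members fell and 1 rose (595 and 131 of all genes). Same-numbered arrays did not deviate together (correlations of deviations -0.05, -0.01 and -0.11), and no sample was known to be paired, so the arrays share only a number.

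Some differences changed sign. With centred arrays Mrps2, Mrpl17 and Mrps12 were at -0.011, -0.0069 and -0.0067. With array weights Mrpl11 was at -1.20, Mrps2 at -0.72, Mrpl17 at -0.34, Mrpl44 at -0.31, Mrps18a at 0.25 and Mrps30 at 0.87. With the mean of all probe sets Mrps2 was at -0.35, Mrpl44 at -0.060 and Mrpl35 at -0.32, and without cross-matching probe sets Mrpl48 was at -0.72. Leaving out 1 array moved Mrps2 between -0.61 and 0.42, Mrpl17 between -0.46 and 0.31, Mrps12 between -0.064 and 0.14, Mrpl39 between -0.69 and 0.085, Mrps25 between -1.06 and 0.12, Mrpl11 between -0.22 and 1.28, Mrpl44 between -0.25 and 0.63, Mrps18a between -0.64 and 0.45, and Mrps30 between -0.98 and 0.94. Of all values of named members under the alternatives, 417 kept their direction and side of the threshold, 49 lost and 30 gained a call, and 28 changed sign. Signal near background limited Mrpl14, and Mrpl42 and Mrpl13 on 1 array.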
